A study of Rattus norvegicus with 65 samples.

Results

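The genes described here control the entry of glucose into the cell and the flow of its carbon to lactate or into the mitochondrion. They were chosen by name, as the rows of the count table that map to 10 rat symbols: the glucose transporters Slc2a1 and Slc2a4, the hexokinases Hk1 and Hk2, the phosphofructokinase Pfkm, the pyruvate kinase Pkm, the lactate dehydrogenases Ldha and Ldhb, and the pyruvate dehydrogenase kinases Pdk2 and Pdk4. Pkm has no row in the table and was not analysed here, which left 9 members of 14554 genes.

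Transcript levels come from RNA sequencing of cardiomyocytes, the muscle cells of the heart, isolated from newborn rats and kept in primary culture. The cells received 10 mM 5FU (5-fluorouracil, a uracil analog used against tumors), 2.5 mM Ace (acetaminophen) or 1.25 µM Dox (doxorubicin, an anthracycline) for 6 or 24 hours, and controls received the solvent alone: DMSO1 at 1% for 5FU, and DMSO2 at 0.25% for Ace and Dox. There were 6 libraries each for 5FU and DMSO1 at both times and for Ace at 6 hours, and 7 each for Dox and DMSO2 at both times and for Ace at 24 hours, 65 in all. The isolated cells of several litters had been combined, so each library of a group is another culture of the same mixture, and the p-values measure the spread between cultures, not between animals. Library totals ran from 14332827 to 25738297 estimated counts, and the lowest count of a member in any library was 188.

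Glucose enters a cell through facilitative transporters, is trapped by hexokinase and is committed to glycolysis by phosphofructokinase. The pyruvate formed is reduced to lactate by lactate dehydrogenase or oxidized by pyruvate dehydrogenase, which the pyruvate dehydrogenase kinases switch off. The heart around birth relies on glucose and lactate and later on fatty acids, and several of these steps have a pair of isozymes. Slc2a1 (GLUT1) works at rest and Slc2a4 (GLUT4) moves to the membrane on insulin, Hk1 is the constitutive and Hk2 the inducible hexokinase of muscle, and Ldha and Ldhb encode the muscle and heart subunits of lactate dehydrogenase.

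The stretch of 250 bases before a transcript start in the table is shown for 4 members, 2 of which (Ldha and Slc2a1) were higher and 2 of which (Pfkm and Pdk2) were lower in Dox at 24 hours. Capitals mark matches, on either strand, to ACGTG, the core of sites bound by hypoxia-inducible factors, or to GGGCGG, the GC box. The sequences come from RefSeq, build GRCr8, and read 5' to 3' along the gene. Ldha lies at chr1:106507842-106508091 on the plus strand, Slc2a1 at chr5:138002272-138002521 on the plus strand, Pfkm at chr7:131113849-131114098 on the plus strand, and Pdk2 at chr10:80483913-80484162 on the minus strand.
Ldha: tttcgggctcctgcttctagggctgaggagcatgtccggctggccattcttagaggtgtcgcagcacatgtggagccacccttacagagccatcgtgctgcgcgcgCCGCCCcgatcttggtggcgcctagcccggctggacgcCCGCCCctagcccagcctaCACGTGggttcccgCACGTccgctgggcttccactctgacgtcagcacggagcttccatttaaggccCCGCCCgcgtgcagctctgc
Slc2a1: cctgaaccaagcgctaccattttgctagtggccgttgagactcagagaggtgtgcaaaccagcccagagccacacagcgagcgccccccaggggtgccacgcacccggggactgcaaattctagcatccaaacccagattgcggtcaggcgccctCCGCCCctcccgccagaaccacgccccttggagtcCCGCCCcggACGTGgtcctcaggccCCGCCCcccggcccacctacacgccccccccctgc
Pfkm: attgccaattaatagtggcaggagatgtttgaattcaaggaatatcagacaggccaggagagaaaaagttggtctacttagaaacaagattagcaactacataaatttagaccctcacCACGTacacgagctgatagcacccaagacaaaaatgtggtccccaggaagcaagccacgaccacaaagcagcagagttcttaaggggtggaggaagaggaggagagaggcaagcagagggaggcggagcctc
Pdk2: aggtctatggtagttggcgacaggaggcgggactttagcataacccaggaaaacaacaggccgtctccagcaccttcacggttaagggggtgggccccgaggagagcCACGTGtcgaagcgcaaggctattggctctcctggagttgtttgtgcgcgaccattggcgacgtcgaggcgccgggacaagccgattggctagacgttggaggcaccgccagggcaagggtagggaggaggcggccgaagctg

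Ldha held 3 matches to ACGTG and 3 to GGGCGG, and Slc2a1 held 1 and 3. A pair of the Ldha matches are the overlapping strands of a single CACGTG, the E-box, 87 bases before the start. Pdk2 held a CACGTG as well, 143 bases before the start, and Pfkm held 1 ACGTG, while neither held GGGCGG. Of 33469 such windows, 16.6% held ACGTG, 5.59% CACGTG and 30.5% GGGCGG, so these are common strings, and a match is a description and not a site. GTAAACA, a string bound by FOXO factors and present in 3.21% of windows, was in none of the members' windows. Hk2, higher in Dox at 24 hours, and Ldhb, not called there, held none of the 4 strings. Pdk4, also higher there, held 1 GGGCGG, 95 bases before the start, and none of the other strings. Hk1, lower there, has a pair of windows: the upstream one held none, and the other held 1 ACGTG and 2 overlapping GGGCGG. Slc2a4 has no entry in the table of windows. The Pfkm and Pdk2 windows precede starts that lie 13415 and 76 bases inside the annotated span of the gene.

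The cultures held cardiomyocytes and other heart cells. In CPM, the counts of a library scaled to a common total with TMM factors, the most abundant cardiomyocyte marker, Myh6, averaged 13514 over the libraries. The most abundant markers of other cells averaged 4661 CPM for Col1a1 of fibroblasts, 549 for Acta2 of smooth muscle, 53.2 for Cdh5 of endothelium, 18.03 for Hba-a1 of red cells and 14.6 for Csf1r of macrophages. No marker in the table was at 0 throughout, and Mfap5 of fibroblasts and Cd163 of macrophages averaged under 1 CPM. In such bulk RNA fewer cells of a type and less RNA per cell cannot be told apart.

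Certain libraries stood apart from their own group. Of 12886 genes with a mean of at least 1 CPM, DMSO1 24 h library 1 lay far from its group in 1210, Dox 24 h library 7 in 1045, 5FU 6 h library 1 in 742 and Dox 6 h library 4 in 591, against at most 391 for any other library. DMSO1 24 h library 1 was placed between the rest of DMSO1 and 5FU at 24 hours. Only the 865 genes whose means differed by more than 1 on the log2 scale were used, and their median lay at 0.42 of the distance. The other 5 libraries were placed in the same way, against a rest that included library 1. Over 662 to 684 genes they lay between -0.097 and -0.056. 5FU 6 h library 1 and Dox 6 h library 4 were high in Bnip3, which acts in the removal of mitochondria, at 668 CPM against 83.4 to 121 in the other 5FU libraries and 759.8 CPM against 136 to 168 in the other Dox libraries. The rule that set these 4 libraries apart, and the choice of Bnip3, were made after values were seen. Each call of a member against its solvent, or between the times, that changed without these libraries is given with both values.

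**Figure D1:**
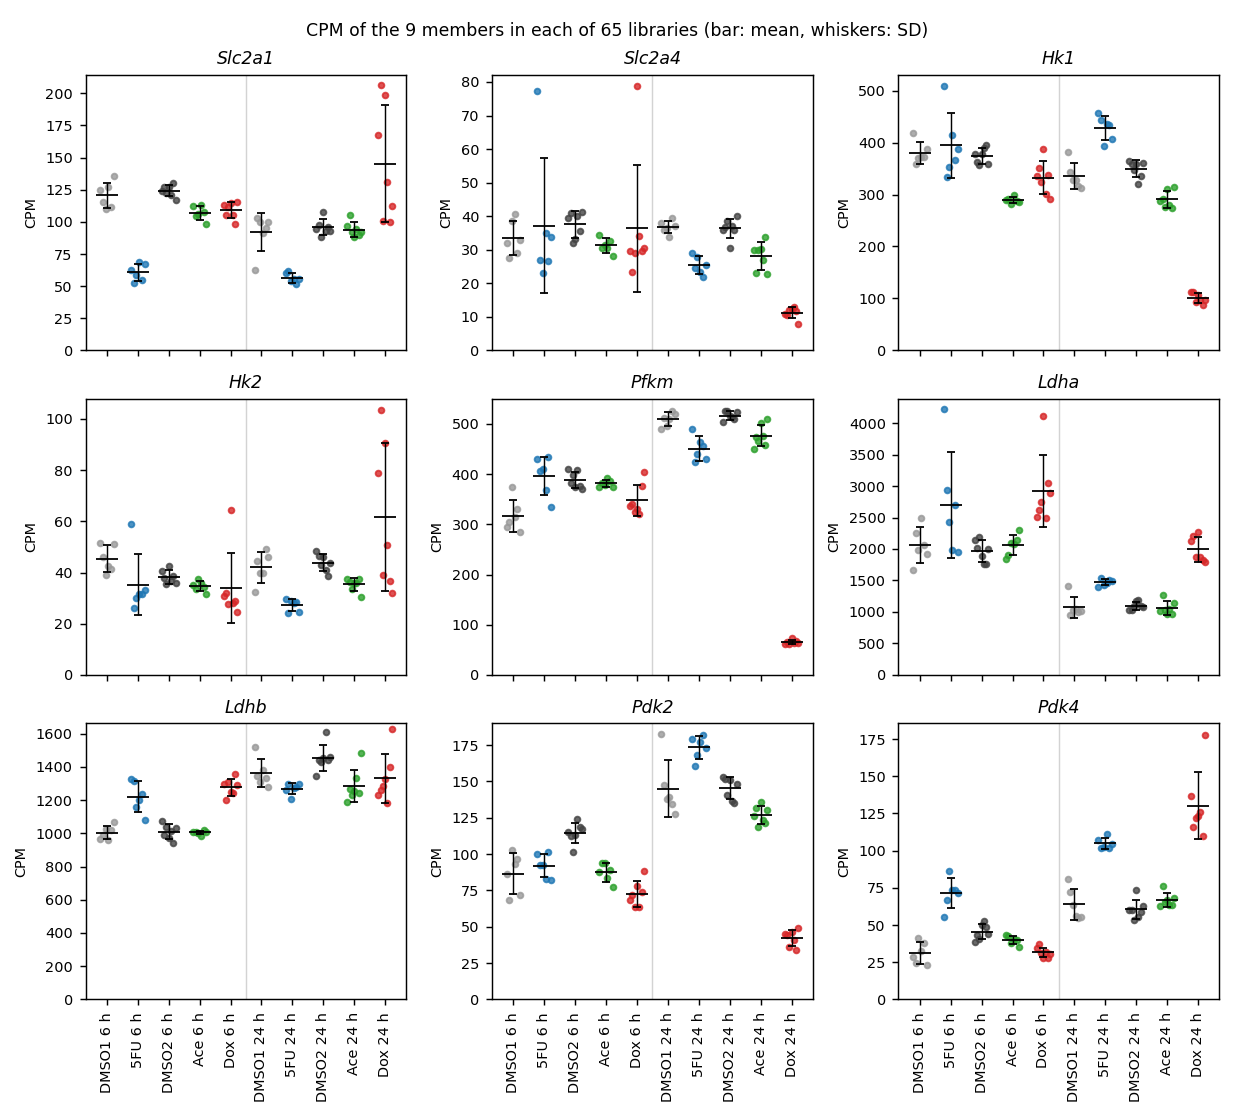
CPM (vertical axes, from 0) of the 9 members in the 65 libraries, by treatment and time on the horizontal axis; points are libraries, bars the group mean and whiskers the SD. Pfkm in the Dox 24 h libraries sits at 61.5 to 73.00 CPM, under every other library, and single high points for Slc2a4 and Hk2 appear in 5FU 6 h and Dox 6 h.

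Members differed in how far they moved over the 10 groups. The highest group mean exceeded the lowest by 7.92-fold for Pfkm, 4.26-fold for Hk1, 4.15-fold for Pdk4, 4.09-fold for Pdk2 and 3.345-fold for Slc2a4. The others spanned 2.74-fold (Ldha), 2.58-fold (Slc2a1), 2.26-fold (Hk2) and 1.45-fold (Ldhb). Dox at 24 hours held the lowest mean of Slc2a4, Hk1, Pfkm and Pdk2 and the highest mean of Slc2a1, Hk2 and Pdk4. When the groups were ordered by their mean, the library values of neighbours overlapped at most steps. Dox at 24 hours was separate from its neighbour above for Slc2a4 (5FU at 24 hours), Hk1 (Ace at 6 hours), Pfkm (DMSO1 at 6 hours) and Pdk2 (Dox at 6 hours). Slc2a1 and Hk2 had no separate neighbours.

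Each drug was compared with its own solvent at each time. A gene was called higher or lower at an FDR below 0.01 (Benjamini-Hochberg over 14554 genes) in edgeR's quasi-likelihood test, and fold changes are on the log2 scale. Ace and Dox share the DMSO2 libraries.

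Dox at 24 hours raised Pdk4, Ldha, Slc2a1 and Hk2 and lowered Pfkm, Hk1, Pdk2 and Slc2a4. These are 4 of 9 members higher and 4 lower, where 40.4% of all genes were called higher and 41% lower, so a call there is common. The median of the members was -0.13, against 0.00 for all genes. The decreases ran from 3.26-fold (Slc2a4) to 7.92-fold (Pfkm). The paper reports that every chosen dose lowered cell viability at the later time. It also reports a significant rise in cell death then for Dox, and none for the other drugs. The part of cell death in the changes of the members was not tested.

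Pfkm, the muscle phosphofructokinase, stood at 503, 515 and 526 CPM (lowest, median and highest library) in DMSO2 and at 61.5, 64.2 and 73.00 CPM in Dox at 24 hours. The groups were far apart, and the highest Dox library was under the lowest library of any other group. The change was -2.98 (SE 0.05, edgeR FDR 8.9e-52). At 6 hours the groups overlapped, at 370.1 to 409.6 CPM in DMSO2 and 321 to 404 CPM in Dox, and the change of -0.16 (SE 0.05, edgeR FDR 0.00296) was not called by DESeq2, in a fit of the compared groups only (edgeR FDR 0.0195), without Dox library 3 or 5, nor without the libraries that stand apart (-0.13, edgeR FDR 0.0219). The 24-hour effect differed from the 6-hour effect by -2.83 (SE 0.07, edgeR FDR 2.2e-42).

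Hk1 stood at 321, 358 and 365 CPM in DMSO2 and 87.4, 97.9 and 113 CPM in Dox at 24 hours. The groups did not overlap, with a change of -1.80 (SE 0.06, edgeR FDR 2.3e-36). At 6 hours the groups overlapped and the change was -0.17 (SE 0.06, edgeR FDR 0.00948). That call was lost in 9 of 14 fits that left out 1 library, in DESeq2, in a fit of the compared groups only and with another filter on low counts. The effects at 24 and 6 hours differed by -1.63 (SE 0.09, edgeR FDR 6.5e-26).

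Slc2a4, the insulin-responsive transporter, stood at 30.6, 36.7 and 39.98 CPM in DMSO2 and 7.87, 11.9 and 12.9 CPM in Dox at 24 hours. Every Dox library was under every DMSO2 library, with a change of -1.71 (SE 0.18, edgeR FDR 3.0e-13). At 6 hours the change was -0.04 (SE 0.16, edgeR FDR 0.823), and it rested on Dox 6 h library 4 at 78.7 CPM, where the other Dox libraries ran over 23.3 to 34.2 CPM. Without the libraries that stand apart Slc2a4 was called lower at 6 hours (-0.34, edgeR FDR 5.8e-04). The effects differed by -1.66 (SE 0.24, edgeR FDR 1.5e-08).

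Slc2a1 and Hk2 rose in Dox at 24 hours, unevenly among the cultures. For Slc2a1 the Dox libraries 1 to 7 were at 168, 207, 101, 198, 131, 99.7 and 113 CPM, and DMSO2 ran over 88.04 to 108 CPM. For Hk2 they were at 78.9, 104, 38.95, 90.6, 50.7, 36.9 and 32.1 CPM, and DMSO2 ran over 38.7 to 48.3 CPM. Libraries 1, 2, 4 and 5 were the highest for both genes, and the others lay near or inside the DMSO2 range, with libraries 6 and 7 of Hk2 under it. The changes were 0.60 (SE 0.10, edgeR FDR 8.1e-08) for Slc2a1 and 0.49 (SE 0.17, edgeR FDR 0.00548) for Hk2. The Hk2 call was lost without Dox library 1, 2 or 4 or DMSO2 library 5 or 6, where all fits that left out 1 library gave 0.34 to 0.63, and in a fit of the compared groups only. For Slc2a1 the 24-hour effect exceeded the 6-hour effect by 0.79 (SE 0.14, edgeR FDR 7.4e-07). For Hk2 it did so by 0.66 (SE 0.24, edgeR FDR 0.0101), which was not called. It was called by DESeq2, by library size only (0.87, edgeR FDR 7.7e-04) and without the libraries that stand apart (1.01, edgeR FDR 7.8e-07). At 6 hours Slc2a1 was at -0.19 (SE 0.10, edgeR FDR 0.0783) and Hk2 at -0.18 (SE 0.17, edgeR FDR 0.349), neither of them called. Slc2a1 was called lower by library size only (-0.34, edgeR FDR 0.00215) and in a fit of the compared groups only (-0.18, edgeR FDR 0.0015), and Hk2 without the libraries that stand apart (-0.40, edgeR FDR 0.00441).

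Ldha was higher in Dox at both times. It stood at 1757, 2006 and 2195 CPM in DMSO2 and 2490.2, 2739 and 4119.8 CPM in Dox at 6 hours, and at 1023, 1089 and 1195 CPM and 1796, 1879.7 and 2270.4 CPM at 24 hours. The groups did not overlap at either time. The changes were 0.57 (SE 0.10, edgeR FDR 2.1e-06) and 0.86 (SE 0.10, edgeR FDR 2.7e-11). Their difference of 0.29 (SE 0.15, edgeR FDR 0.0668) was not called, and it was called by library size only (0.50, edgeR FDR 8.6e-04) and without the libraries that stand apart (0.41, edgeR FDR 7.1e-04). Ldhb was called higher at 6 hours (0.34, SE 0.05, edgeR FDR 9.8e-09) and not called at 24 hours (-0.13, SE 0.05, edgeR FDR 0.0134), and the difference of these effects passed the test (-0.47, SE 0.07, edgeR FDR 1.8e-08). Without the libraries that stand apart Ldhb was called lower at 24 hours (-0.17, edgeR FDR 2.9e-04).

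Pdk2, a pyruvate dehydrogenase kinase found in most tissues, was lower in Dox at both times. It stood at 101, 115 and 124 CPM in DMSO2 and 63.7, 71.8 and 88.2 CPM in Dox at 6 hours, and at 135, 149 and 153 CPM and 34.2, 44.6 and 49.3 CPM at 24 hours. Neither pair of groups overlapped. The changes were -0.66 (SE 0.07, edgeR FDR 5.2e-12) and -1.78 (SE 0.08, edgeR FDR 3.0e-31), and they differed by -1.12 (SE 0.11, edgeR FDR 1.0e-14).

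Pdk4, the kinase that fasting induces, went in opposite directions at the 2 times. It was lower in Dox at 6 hours, at 27.8, 31.2 and 36.95 CPM against 38.9, 43.7 and 52.99 CPM in DMSO2, and higher at 24 hours, at 110.1, 123 and 178 CPM against 53.6, 60.2 and 73.5 CPM. The groups did not overlap at either time. The changes were -0.53 (SE 0.10, edgeR FDR 4.3e-06) and 1.10 (SE 0.10, edgeR FDR 1.1e-16), and they differed by 1.63 (SE 0.14, edgeR FDR 1.4e-16). The highest value was in Dox 24 h library 7, and without the libraries that stand apart the 24-hour change was 1.02.

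In Dox at 6 hours 2 higher and 4 lower members were called, against 31.5% and 32.7% of all genes. The Dox effect at 24 hours exceeded that at 6 hours for 2 members and was under it for 5, against 34% and 30.8% of all genes.

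**Figure D2:**
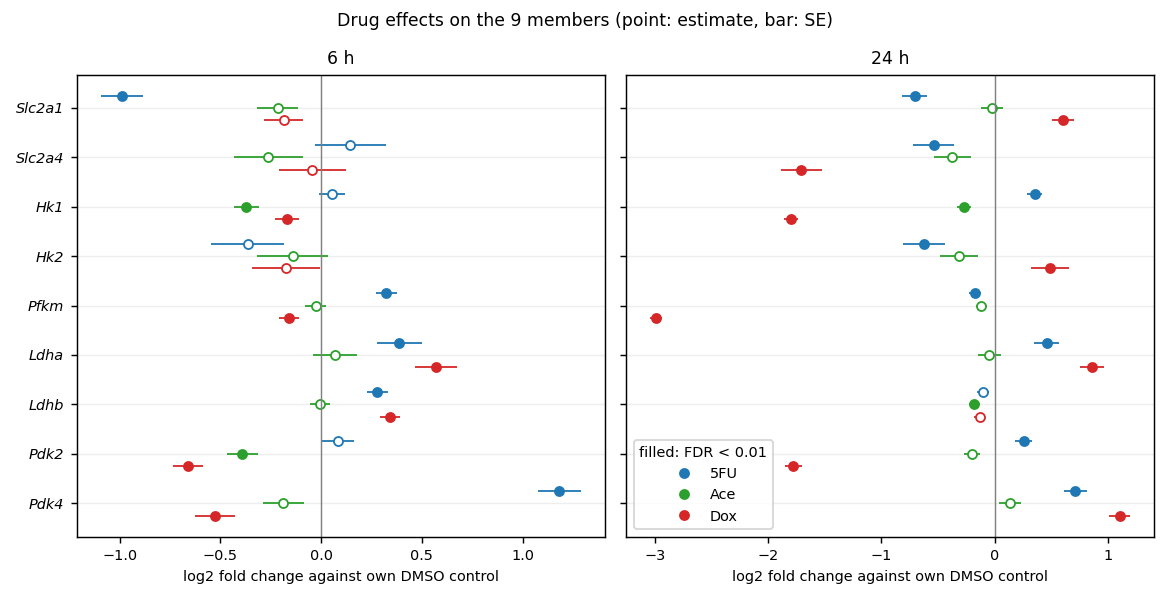
Log2 fold change (horizontal axes) of each member in 5FU, Ace and Dox against its own DMSO control at 6 hours (left) and 24 hours (right); points are estimates, bars their SE, and filled points passed an FDR below 0.01. The scales of the panels differ: the change farthest from 0 is -2.98 for Pfkm in Dox at 24 hours and 1.18 for Pdk4 in 5FU at 6 hours.

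5FU lowered Slc2a1 and raised Pdk4 at both times. Slc2a1 stood at 110.0, 120.1 and 135 CPM in DMSO1 and 52.7, 60.6 and 68.9 CPM in 5FU at 6 hours, and at 62.7, 97.5 and 103 CPM and 51.7, 55.5 and 61.4 CPM at 24 hours. The 5FU libraries were all lower, although DMSO1 24 h library 1, at 62.7 CPM, came close. The changes were -0.99 (SE 0.11, edgeR FDR 3.9e-12) and -0.71 (SE 0.11, edgeR FDR 4.7e-08).

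Pdk4 stood at 22.97, 30.7 and 41.5 CPM in DMSO1 and 55.5, 72.6 and 86.5 CPM in 5FU at 6 hours, and at 54.8, 59.8 and 80.6 CPM and 102, 103 and 111 CPM at 24 hours. The 5FU libraries were all higher, and the 5FU libraries at 6 hours were also above DMSO2 at 6 hours, at 38.9 to 52.99 CPM. The changes were 1.18 (SE 0.11, edgeR FDR 5.9e-15) and 0.71 (SE 0.10, edgeR FDR 1.3e-08). The effects at 24 and 6 hours differed by -0.47 (SE 0.15, edgeR FDR 0.00626), a call lost in 8 of 24 fits that left out 1 library, by library size only (edgeR FDR 0.0318) and in a fit of the compared groups only (edgeR FDR 0.022).

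At 6 hours 5FU had 4 higher and 1 lower of the members, against 23.4% and 24.5% of all genes. At 24 hours it had 4 higher and 4 lower, against 28% and 27.8%. The median of the members was 0.15 and -0.10, beside 0.00 and -0.01 for all genes.

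The hexokinases went opposite ways in 5FU at 24 hours. Hk1 stood at 313, 328 and 383 CPM in DMSO1 and 394, 434 and 457 CPM in 5FU, and Hk2 at 32.4, 42.3 and 49.4 CPM and 24.1, 28.3 and 29.5 CPM. Neither gene had overlapping groups. The changes were 0.35 (SE 0.06, edgeR FDR 2.6e-06) and -0.62 (SE 0.18, edgeR FDR 0.00258). At 6 hours Hk2 was at -0.36 (SE 0.18, edgeR FDR 0.0785), and it was called without the libraries that stand apart (-0.58, edgeR FDR 2.3e-04), where 5FU 6 h library 1 held 58.8 CPM and the others 26.03 to 33.1 CPM. For Hk1 the 24-hour effect exceeded the 6-hour effect by 0.30 (SE 0.09, edgeR FDR 0.00477), a call lost in 5 of 24 fits that left out 1 library and in a fit of the compared groups only (edgeR FDR 0.0322).

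Pfkm was higher in 5FU at 6 hours (0.32, SE 0.05, edgeR FDR 3.4e-07) and lower at 24 hours (-0.18, SE 0.05, edgeR FDR 0.0029), and the effects differed by -0.50 (SE 0.07, edgeR FDR 8.1e-08). Its levels were 284 to 374 CPM in DMSO1 and 335 to 434 CPM in 5FU at 6 hours, and 491 to 526 CPM and 425 to 490.1 CPM at 24 hours. The 6-hour groups overlapped, and DMSO1 was itself under DMSO2 at 6 hours, at 370.1 to 409.6 CPM. The 24-hour call was lost in 5 of 12 fits that left out 1 library.

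Ldha in 5FU was higher at 24 hours, at 1402, 1480.2 and 1543 CPM against 948, 1019 and 1406 CPM in DMSO1, where the overlap came from DMSO1 library 1. The change was 0.46 (SE 0.11, edgeR FDR 2.9e-04). At 6 hours it was 0.39 (SE 0.11, edgeR FDR 0.00226), with 5FU 6 h library 1 at 4216 CPM where the others ran over 1947 to 2937 CPM. That call was lost without the libraries that stand apart (0.21, edgeR FDR 0.0318), without 5FU library 1 or DMSO1 library 1 alone, by library size only (0.30, edgeR FDR 0.0113) and in a fit of the compared groups only (0.38, edgeR FDR 0.062), and it held in DESeq2. Ldhb was called higher at 6 hours (0.28, SE 0.05, edgeR FDR 7.8e-06) and not called at 24 hours (-0.10, SE 0.05, edgeR FDR 0.0821), a difference that passed the test (-0.38, SE 0.08, edgeR FDR 2.0e-05).

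Slc2a4 in 5FU at 24 hours was at 21.9 to 29.1 CPM against 33.9 to 39.5 CPM, with no overlap, and changed by -0.54 (SE 0.18, edgeR FDR 0.00825). The call was lost in 9 of 12 fits that left out 1 library, although the change stayed between -0.59 and -0.48. Pdk2 was higher at 24 hours by 0.26 (SE 0.08, edgeR FDR 0.0033), with overlap from DMSO1 library 1 at 182 CPM. The 5FU effect at 24 hours exceeded that at 6 hours for 1 member and was under it for 3, against 20.3% and 19.2% of all genes.

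In Ace 2 of 9 members were called lower at each time, a share near that of all genes. At 6 hours none was higher and those lower were Hk1 (-0.37, SE 0.06, edgeR FDR 1.4e-06) and Pdk2 (-0.39, SE 0.08, edgeR FDR 2.6e-05), against 16.5% and 15.2% of all genes. Hk1 ran over 281 to 299 CPM against 357 to 396 CPM in DMSO2, and Pdk2 over 77.1 to 93.9 CPM against 101 to 124 CPM, with no overlap. At 24 hours none was higher and those lower were Hk1 (-0.27, SE 0.06, edgeR FDR 1.4e-04) and Ldhb (-0.18, SE 0.05, edgeR FDR 0.00195), against 18.2% and 19.1% of all genes, and the Ldhb call was lost without Ace library 1 or DMSO2 library 5. No member was higher in Ace at either time in edgeR at an unadjusted p under 0.05 (0 members) or in DESeq2 (0 members). A fit of the compared groups only called 4 members lower at 6 hours, with Slc2a1 (-0.21, edgeR FDR 3.2e-04) and Slc2a4 (-0.26, edgeR FDR 0.00356) added. At 24 hours it called 6, with Slc2a4, Hk2, Pfkm and Pdk2 added. The shares of all genes above belong to the fit of all groups, so the counts of this fit have no share beside them. Slc2a4 was at -0.26 (SE 0.17, edgeR FDR 0.227) and -0.37 (SE 0.17, edgeR FDR 0.0591) at the 2 times. It was also called lower at both without the libraries that stand apart (-0.28, edgeR FDR 0.00633 and -0.36, edgeR FDR 2.7e-04). No Ace effect on a member differed between the times in edgeR or DESeq2 (0 each), and 2 did at an unadjusted p under 0.05. At an FDR below 0.01 5.58% of all genes differed upward and 6.06% downward.

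Over both controls 4 of 9 members were called higher and 3 lower by edgeR at 24 than at 6 hours, where 32.7% and 31.9% of all genes were. Pdk4 (0.72, SE 0.07), Pfkm (0.55, SE 0.04), Pdk2 (0.54, SE 0.05) and Ldhb (0.48, SE 0.04) were higher. Ldha (-0.89, SE 0.08), Slc2a1 (-0.38, SE 0.07) and Hk1 (-0.14, SE 0.04) were lower. Slc2a4 (0.04, SE 0.12, edgeR FDR 0.757) and Hk2 (0.04, SE 0.12, edgeR FDR 0.759) were not called. Ldha at 24 hours in Dox, at 1796 to 2270.4 CPM, overlapped DMSO2 at 6 hours, at 1757 to 2195 CPM. The Dox comparison and this one share the DMSO2 24 h libraries. The Hk1 call was lost in 3 of 26 fits that left out 1 library (DMSO1 6 h library 1, DMSO2 6 h library 1 or DMSO2 24 h library 5). In this comparison 10 of 11 fibroblast and 8 of 9 macrophage markers were higher and none lower (medians 0.43 and 0.73), and of 13 cardiomyocyte markers 3 were higher and 7 lower. Of 9 endothelial markers 4 were higher and 3 lower. Of 9 smooth muscle markers 5 were higher and 3 lower, and all 3 red cell markers were lower. Their part in the changes of the members was not tested.

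Between the solvents at 6 hours no member was higher in DMSO1 than in DMSO2 (0 in edgeR also at an unadjusted p under 0.05, and 0 in DESeq2), and Pdk4 (-0.53, SE 0.10), Pdk2 (-0.40, SE 0.08) and Pfkm (-0.29, SE 0.05) were lower, all with overlap. Of all genes 9.87% were higher and 6.6% lower. At 24 hours 0 members were called in edgeR or DESeq2, and 0 at an unadjusted p under 0.05, against 0.137% and 0.295% of all genes. The share of DMSO and any other difference between these cultures cannot be told apart.

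The balance of isozymes was followed as the log2 ratio of their counts within a library, which does not depend on scaling. Transcript lengths differ, so changes of a ratio are given and not compared with equality. Each of 4 ratios was compared in 8 ways with an exact two-sided permutation test, and the 32 p-values were adjusted together (Benjamini-Hochberg). An adjusted p below 0.05 was taken as a change, and 22 of 32 passed.

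In Dox at 24 hours all 4 ratios moved with no overlap of groups, each at the smallest p the design allows (exact permutation test, p = 5.8e-04, adjusted 0.00266, n = 7 and 7). Pdk4 to Pdk2 went from -1.27 ± 0.12 (SD) in DMSO2 to 1.61 ± 0.17 in Dox, a difference of 2.88. Hk2 to Hk1 went from -3.00 ± 0.07 to -0.84 ± 0.56, a difference of 2.16. Of this pair Hk1 changed by -1.80 and Hk2 by 0.49, and the Hk2 call was lost in 5 of 14 fits that left out 1 library. Slc2a4 to Slc2a1 went from -1.40 ± 0.21 to -3.65 ± 0.49, a difference of -2.25. Ldha to Ldhb went from -0.41 ± 0.06 to 0.59 ± 0.25, a difference of 0.99. None of the 4 overlapped without the libraries that stand apart.

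Ldha to Ldhb was lower at 24 than at 6 hours in the controls, with differences of -1.38 in DMSO1 (from 1.03 ± 0.22 to -0.36 ± 0.13; exact permutation test, adjusted p = 0.00462, n = 6 and 6) and -1.36 in DMSO2 (from 0.96 ± 0.09 to -0.41 ± 0.06; exact permutation test, adjusted p = 0.00266, n = 7 and 7). The groups did not overlap. The mean of 5FU at 24 hours, 0.22 ± 0.04, and that of Dox lay between the control means at 24 and 6 hours.

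In 5FU Hk2 to Hk1 moved the other way than in Dox, from -3.00 ± 0.31 to -3.97 ± 0.14 at 24 hours (difference -0.97, exact permutation test, adjusted p = 0.00462, n = 6 and 6), with no overlap. Pdk4 to Pdk2 was higher in 5FU by 1.11 at 6 hours and by 0.46 at 24 hours (exact permutation tests, adjusted p = 0.00462 for each, n = 6 and 6). Slc2a4 to Slc2a1 was higher by 1.02 at 6 hours (exact permutation test, adjusted p = 0.00462, n = 6 and 6). At 24 hours its difference was 0.15 (exact permutation test, adjusted p = 0.374), and without the libraries that stand apart 0.27 (exact permutation test, adjusted p = 0.0165). Ldha to Ldhb was higher in 5FU at 24 hours by 0.57 (exact permutation test, adjusted p = 0.00462, n = 6 and 6), and Hk2 to Hk1 lower at 6 hours by 0.45 on the log2 scale (exact permutation test, adjusted p = 0.0154, n = 6 and 6), with overlap.

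In Ace changes of ratios passed at both times. At 24 hours Pdk4 to Pdk2 was higher by 0.34 (exact permutation test, adjusted p = 0.00266, n = 7 and 7), with no overlap. The others overlapped. They were Pdk4 to Pdk2 at 6 hours (0.21, exact permutation test, adjusted p = 0.0154), Hk2 to Hk1 at 6 hours (0.23, exact permutation test, adjusted p = 0.00462), and at 24 hours Slc2a4 to Slc2a1 (-0.36, exact permutation test, adjusted p = 0.028) and Ldha to Ldhb (0.13, exact permutation test, adjusted p = 0.0261). In Dox at 6 hours Ldha to Ldhb was higher by 0.21 (exact permutation test, adjusted p = 0.028), which did not pass without the libraries that stand apart (adjusted p = 0.0528) nor, unadjusted, without DMSO2 library 5, while Hk2 to Hk1, which did not pass, did so without them (-0.20, exact permutation test, adjusted p = 0.00433). In the controls Slc2a4 to Slc2a1 was higher at 24 than at 6 hours in DMSO1 (0.55, exact permutation test, adjusted p = 0.00866) and DMSO2 (0.34, adjusted p = 0.0177 in the exact test), Pdk4 to Pdk2 in DMSO1 (0.29, exact permutation test, adjusted p = 0.00462) and Hk2 to Hk1 in DMSO2 (0.30, exact permutation test, adjusted p = 0.00266).

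**Figure D3:**
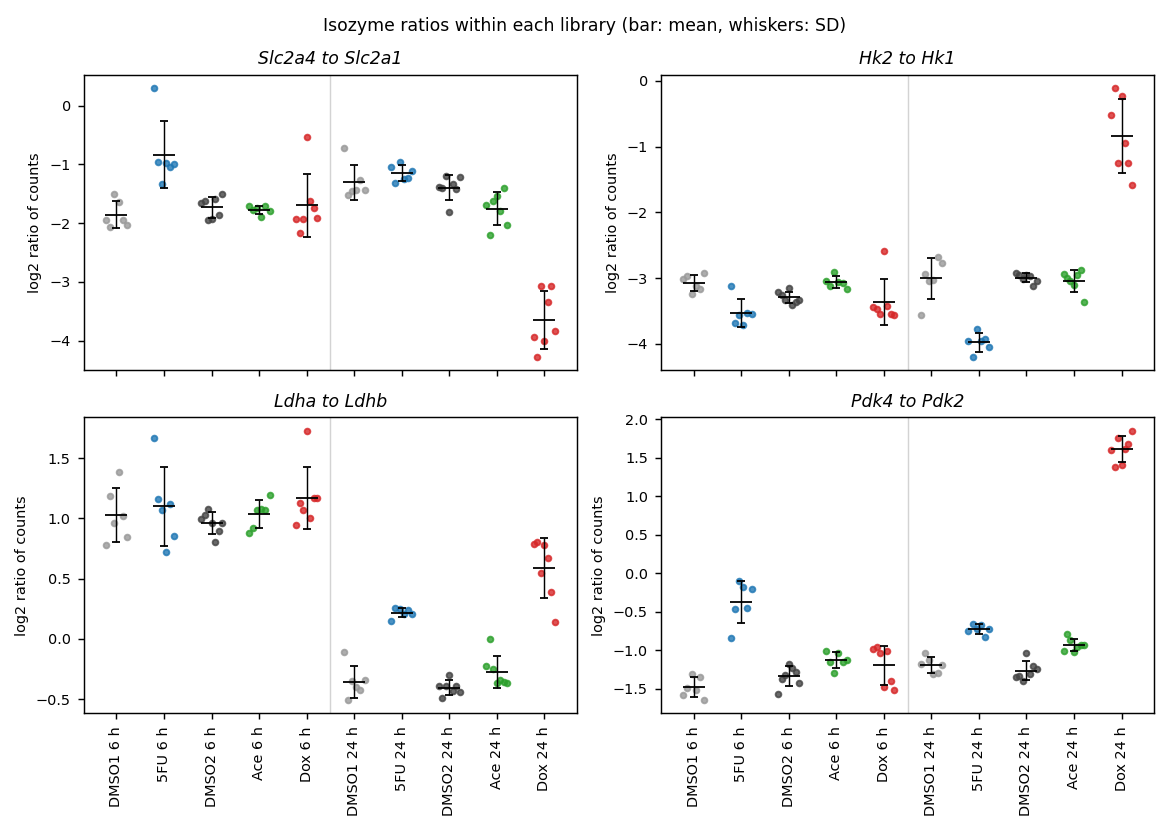
Log2 ratio of the counts of a pair of isozymes (vertical axes) in each of the 65 libraries, by treatment and time; points are libraries, bars the mean and whiskers the SD. Dox 24 h does not overlap DMSO2 24 h in any of the 4 ratios, and Ldha to Ldhb drops in both controls between 6 and 24 hours.

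Other enzymes of glycolysis, 15 of 19 listed having a row, split in Dox at 24 hours, with 5 higher and 8 lower (median -0.23, all genes 0.00), where 40.4% of all genes were higher and 41% lower. Pfkp, a phosphofructokinase of many tissues (0.99, SE 0.12), Pgk1 (0.92), Eno1 (0.90), Tpi1 (0.55) and Gpi (0.30) were higher. Pgam2, the muscle phosphoglycerate mutase (-3.28, SE 0.11), and Aldoc, an aldolase (-1.43, SE 0.08), fell most in this list. Of the phosphofructokinase genes, Pfkm was lower, Pfkp higher, and the liver gene Pfkl (0.20, SE 0.16) was not called. In Dox at 6 hours 11 were higher and 2 lower (median 0.37), beside 31.5% and 32.7% of all genes, led by Eno2 (1.09) and Pfkp (0.92). By library size only 6 were higher, with Gpi, Aldoa, Pgk1, Pgam1 and Eno3 not called, and without the libraries that stand apart 9 were, with Eno2 and Pgk1 not called.

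In 5FU 5 of these enzymes were higher and 0 lower at 6 hours, beside 23.4% and 24.5% of all genes, and 3 and 4 at 24 hours, beside 28% and 27.8% of all genes, among them Pgam1 (1.18) and Eno3 (-1.10). The 6-hour count moved with the scaling and with the libraries left out: by library size only 1 was higher, Aldoc, and without the libraries that stand apart 2 were higher and 2 lower, with Aldoa, Eno1 and Eno3 not called. Ace had 0 higher and 1 lower at 6 hours, beside 16.5% and 15.2% of all genes, and 1 and 3 at 24 hours, beside 18.2% and 19.1% of all genes, with Eno3 at -1.52, and without the libraries that stand apart 1 higher and 2 lower at the earlier time, 4 higher and 3 lower at the later. In the controls 4 were higher and 9 lower at 24 than at 6 hours, beside 32.7% and 31.9% of all genes, with Eno1 (-0.96), Pfkp (-0.89), Pgk1 (-0.86) and Tpi1 (-0.82) lower and Aldoc (1.52) higher. Ldha, Eno1, Pgk1, Tpi1 and Aldoa are genes with processed copies, and reads that such copies share are an uncertainty of these values.

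The enzymes that make and break fructose 2,6-bisphosphate, an activator of phosphofructokinase, were called higher in Dox at 24 hours for 3 of 4 (median 1.26, all genes 0.00), where 40.4% of all genes were. Tigar, a p53 target that breaks it down, was at 2.57 (SE 0.05), Pfkfb3, which makes it, at 1.36 (SE 0.11), and Pfkfb2 of heart at 1.16 (SE 0.07). Tigar was also called higher in Dox at 6 hours (0.65), in 5FU at 6 hours (0.18) and 24 hours (0.21) and in Ace at 6 hours (0.21), where the 5FU 6 h and Ace 6 h calls were lost by library size only, and the 5FU 6 h call also without the libraries that stand apart.

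Of 10 genes of pyruvate dehydrogenase and its regulators beside the members, Dox had 7 higher and 0 lower at 6 hours (median 0.30), beside 31.5% and 32.7% of all genes. At 24 hours it had 5 and 4 (median 0.18), beside 40.4% and 41% of all genes, so these shares were near the background. By library size only the 6-hour counts were 3 higher and 2 lower, and without the libraries that stand apart 6 were higher, with Pdk1 not called. Pdp2, a phosphatase that reverses the kinases, was at 0.89 (SE 0.09) and 2.93 (SE 0.10). Dlat, the E2 subunit, was at -1.56 (SE 0.06) at 24 hours. The kinases of the family did not all move one way in Dox at 24 hours: Pdk2 was lower, Pdk4 and Pdk3 (0.35, SE 0.06) were higher, and Pdk1 (0.04, SE 0.21) was not called.

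**Figure D4:**
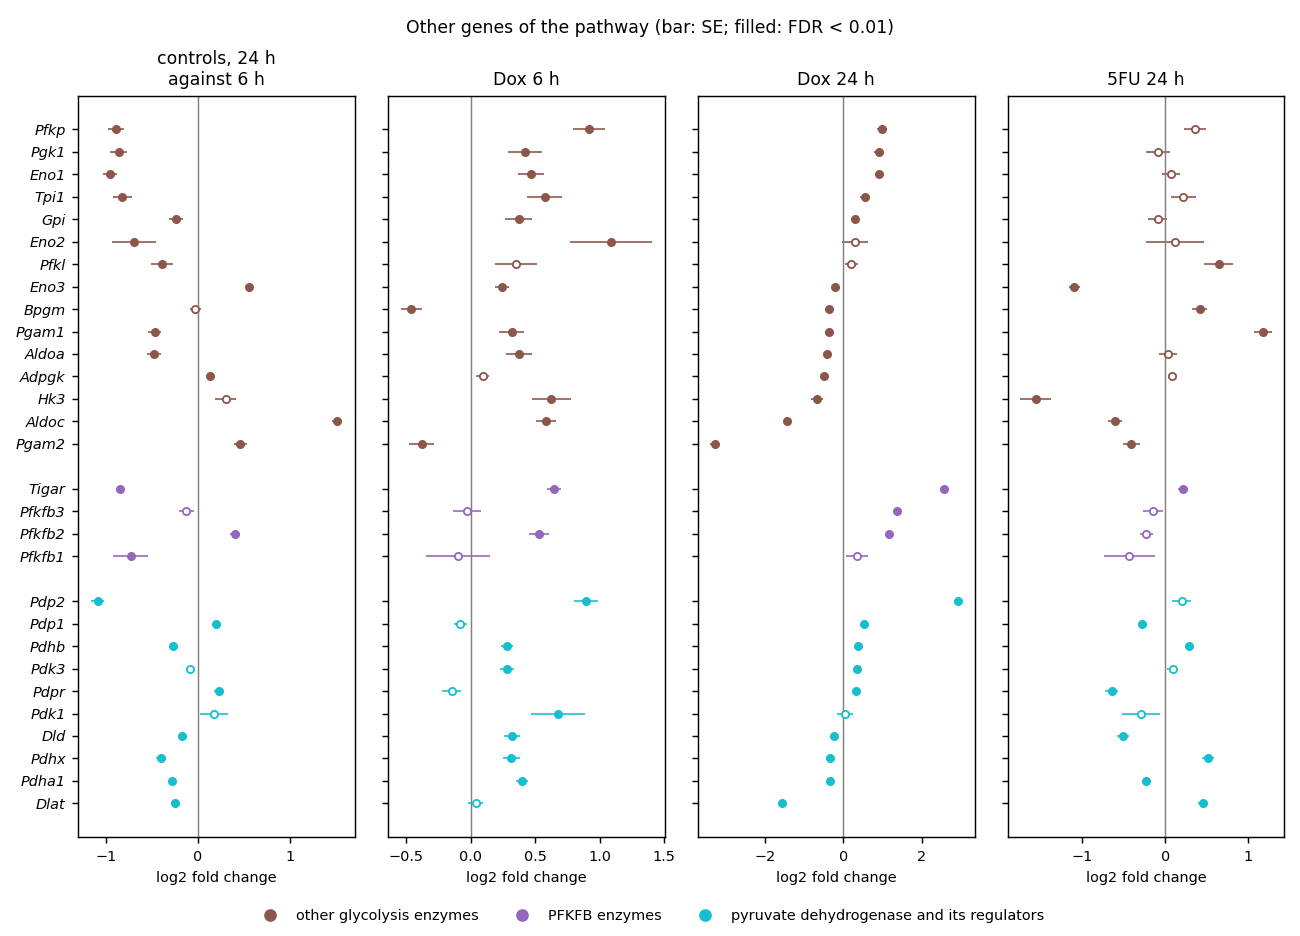
Log2 fold change (horizontal axes) of 15 other glycolysis enzymes, 4 PFKFB enzymes and 10 genes of pyruvate dehydrogenase and its regulators, in panels for the controls at 24 against 6 hours, Dox at 6 hours, Dox at 24 hours and 5FU at 24 hours; the scales of the panels differ, bars are SE and filled points passed an FDR below 0.01. In Dox at 24 hours Pdp2 and Tigar are the highest points, at 2.93 and 2.57, and Pgam2 is the lowest, at -3.28.

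Of 10 further transporters of glucose, lactate and pyruvate, Dox at 24 hours had 2 higher, Slc2a8 (0.88) and the lactate carrier Slc16a1 (0.31), and 7 lower, among them Slc2a10 (-2.09), the lactate exporter Slc16a3 (-1.49) and Slc16a7 (-1.24). The median of these was -0.36, and 40.4% and 41% of all genes were higher and lower. 5FU at 24 hours had 2 higher and 5 lower, beside 28% and 27.8% of all genes, with Slc16a7 at -2.50 and Slc16a1 at -0.77. Of 9 glycogen enzymes Dox at 24 hours had 1 higher, Ugp2, and 6 lower, led by the phosphorylase Pygb (-1.66), Gyg1 (-1.45) and the synthase Gys1 (-1.21), with a median of -0.43 and the same 40.4% and 41% of all genes. At 6 hours Dox had 5 higher and 3 lower of the transporters and 4 higher and 1 lower of the glycogen enzymes. Of all genes 31.5% were then higher and 32.7% lower. By library size only the glycogen enzymes had 3 higher and 2 lower. In that scaling the genes called higher and lower in Dox at 6 hours went from 4589 and 4760 to 3064 and 5998.

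Of 22 genes of insulin signaling and GLUT4 traffic, Dox at 24 hours had 6 higher and 14 lower (median -0.33, all genes 0.00), beside 40.4% and 41% of all genes. At 6 hours it had 2 higher and 8 lower, beside 31.5% and 32.7% of all genes. By library size only it had 1 higher and 15 lower. In that scaling the genes called higher and lower went from 4589 and 4760 to 3064 and 5998. Txnip, which promotes the removal of glucose transporters from the membrane, was lower in Dox, at -3.07 (SE 0.14) at 6 hours and -2.22 (SE 0.13) at 24 hours, and higher in 5FU, at 1.32 (SE 0.14) and 0.94 (SE 0.14), and it was not called in Ace, at 0.34 (SE 0.13) and 0.18 (SE 0.13). Vamp2 of the GLUT4 vesicle (-1.56), Stx4 of the plasma membrane, where the vesicles dock (-1.44), and the Rab regulator Tbc1d4 (-1.21) were lower in Dox at 24 hours, and the insulin receptor substrates Irs2 (1.70) and Irs1 (1.10) were higher.

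Of 24 transcription regulators linked to glucose genes, Dox had 4 higher and 17 lower at 6 hours (median -0.52, all genes 0.00), beside 31.5% and 32.7% of all genes, and 7 and 12 at 24 hours (median -0.25), beside 40.4% and 41% of all genes. Mef2c and Ppargc1a act on Slc2a4 in muscle. Both were lower in Dox at 24 hours (-2.50 and -2.18) and at 6 hours (-0.99 and -1.72), and in 5FU at 6 hours (-0.82 and -1.08). Slc2a4 was not called in either drug at 6 hours. Without the libraries that stand apart Slc2a4 was called lower in Dox at 6 hours (-0.34, edgeR FDR 5.8e-04). In 5FU at 6 hours it was then at -0.22 (edgeR FDR 0.0497), not called. The part of these regulators in the changes of Slc2a4 was not tested. Mef2c and Ppargc1a were also lower in Ace, at 6 hours (-0.44 and -0.51) and 24 hours (-0.30 and -0.33). In 5FU at 24 hours Ppargc1a was lower (-0.34) and Mef2c (-0.01) not called. Klf15 was lower in Dox at 24 hours (-2.02), and Mlxip, a glucose sensor, was higher (1.63). Foxo1 and Foxo3 act on Pdk4. Both were higher in Dox at 24 hours (1.23 and 1.25) and in 5FU at 6 hours (1.08 and 0.68), where Pdk4 was higher, and also in Dox at 6 hours (0.74 and 0.49), where Pdk4 was lower (-0.53). In 5FU at 24 hours Foxo3 (0.62) was higher and Foxo1 (0.26) not called, with Pdk4 higher, and in Ace at 6 hours Foxo1 (0.47) was higher and Pdk4 (-0.19) not called. The part of Foxo1 and Foxo3 in the changes of Pdk4 was not tested. 5FU at 6 hours had 3 higher and 9 lower of the regulators, beside 23.4% and 24.5% of all genes, with Myc at -1.31. In the controls 18 were higher and 2 lower at 24 than at 6 hours (median 0.28), beside 32.7% and 31.9% of all genes.

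The same lists were counted in 5FU. Of all genes 23.4% were higher and 24.5% lower there at 6 hours, and 28% and 27.8% at 24 hours. The shares in this paragraph belong to the fit of all libraries with TMM factors. Counts by library size only, or without the libraries that stand apart, have no share beside them. The transporters had 5 higher and 3 lower at 6 hours, or 2 and 3 by library size only and 3 and 4 without the libraries that stand apart. Pyruvate dehydrogenase and its regulators had 3 higher and 1 lower at 6 hours, or 1 and 1 by library size only, and 3 higher and 4 lower at 24 hours. Glycogen enzymes had 2 higher and 0 lower and then 1 higher and 3 lower, or 3 and 4 at 24 hours without the libraries that stand apart. The genes of insulin signaling had 5 higher and 9 lower and then 6 higher and 9 lower, and the regulators 6 higher and 5 lower at 24 hours. In Ace, with 16.5% and 15.2% of all genes at 6 hours and 18.2% and 19.1% at 24 hours, the genes of insulin signaling had 5 higher and 4 lower at the earlier time, 4 higher and 5 lower at the later. The regulators had 2 higher and 8 lower and then 0 higher and 7 lower, or 0 and 4 at 24 hours by library size only. The transporters had 1 higher and 2 lower and then 1 higher and 3 lower, or 2 and 3 at 24 hours without the libraries that stand apart. At 6 hours no gene of pyruvate dehydrogenase and its regulators and no glycogen enzyme was called in Ace by edgeR, or 1 glycogen enzyme lower without those libraries. At 24 hours the former had 3 higher and 1 lower and the latter 1 lower, or 3 lower without those libraries.

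Markers of cell types moved in the same comparisons, in which the shares of all genes given above were called. At 24 hours these were 40.4% higher and 41% lower in Dox, 28% and 27.8% in 5FU, and 18.2% and 19.1% in Ace. They belong to the fit of all libraries with TMM factors. In Dox at 24 hours 11 of 13 cardiomyocyte markers were lower and 1 higher (median -1.12), with sums of 24461 to 33235 CPM in the Dox and 44354 to 56471 CPM in the DMSO2 libraries, and Myh6 at a mean of 1029 and 17969 CPM. Of other cells, 10 of 11 fibroblast, 8 of 9 endothelial and 9 of 9 macrophage markers were lower, with medians of -2.10, -2.21 and -1.77. Of 9 smooth muscle markers 3 were higher and 5 lower, and all 3 red cell markers in the table were higher. Fibroblast sums ran over 1950.3 to 4106 CPM in Dox, 5214 to 5883 in 5FU, 7314 to 9345 in Ace, 10038 to 19987 in DMSO1 and 15204 to 18997 in DMSO2 at 24 hours. In 5FU at 24 hours 2 cardiomyocyte markers were higher and 7 lower, and 10 fibroblast, 6 endothelial and 3 macrophage markers were lower, with 2 smooth muscle markers higher and 6 lower and all 3 red cell markers higher. In Ace at 24 hours 2 cardiomyocyte markers were higher and 4 lower, or 4 and 3 by library size only, and 10 fibroblast, 6 endothelial, 6 macrophage and 6 smooth muscle markers were lower. The part of these shifts in the changes of the members was not tested.

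The shares of all genes called at 6 hours were 31.5% higher and 32.7% lower in Dox and 16.5% and 15.2% in Ace. They were 23.4% and 24.5% in 5FU, and 9.87% and 6.6% in DMSO1 against DMSO2. These too belong to the fit of all libraries with TMM factors. At 6 hours Dox had 8 cardiomyocyte markers higher and 3 lower, 9 of 9 endothelial markers lower (median -1.40) and 6 fibroblast markers lower. Of 9 smooth muscle markers 5 were higher in Dox at 6 hours, Acta2 among them, and 3 lower, and of 9 macrophage markers 3 and 2, or 3 and 1 without the libraries that stand apart. The sums of smooth muscle markers at 6 hours ran over 1392 to 3658 CPM in Dox, 1379.6 to 4661 in DMSO1, 1804 to 3124 in 5FU, 1286 to 1627 in DMSO2 and 1071 to 1188 in Ace, so they were widely spread in Dox and DMSO1. All 3 red cell markers were higher in Dox at 6 hours, with sums of 47.7 to 88.1 CPM against 23.03 to 64.05 CPM in DMSO2. Ace at 6 hours had 7 of 11 fibroblast markers lower (median -0.36) and 3 endothelial, 1 cardiomyocyte, 1 macrophage and 1 smooth muscle markers lower, or 5, 2, 2 and 2 without the libraries that stand apart, and no marker higher. In 5FU at 6 hours 3 fibroblast, 3 endothelial and 2 smooth muscle markers were lower and 1 smooth muscle marker higher, with 2 cardiomyocyte markers higher and 2 lower, 1 macrophage marker higher (0 without the libraries that stand apart) and 2 lower, and no red cell marker called. DMSO1 at 6 hours was above DMSO2 in 6 cardiomyocyte markers and under it in 1 cardiomyocyte marker (Pln), 8 fibroblast and 6 endothelial markers, and 3 smooth muscle markers (Acta2, Tagln and Cnn1) were higher and 3 lower, with no macrophage or red cell marker called. This is the comparison in which Pdk4, Pdk2 and Pfkm were lower. The part of these shifts was not tested either.

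The genes most like each member over the 10 group means, among 9311 with a symbol and a mean of at least 10 CPM, were ranked by Pearson's r of the group means of log2(CPM + 1), as a description whose points share the same libraries. For Pfkm they were Pecr (0.998), Rcan2 (0.99) and Ptdss2 (0.99), and for Hk1 Tmem109 (0.99) and Sri (0.99). For Slc2a4 they were Selenom (0.99), Smyd2 (0.99) and Pla2g5 (0.98), and for Pdk2 Thra (0.99), Gypc (0.99) and Golm1 (0.99). Ldha was closest to Timp1 (0.99), Ldhb to Bckdha (0.96), Slc2a1 to Xpo5 (0.95), Hk2 to Focad (0.93) and Pdk4 to Gpbp1l1 (0.98). Among the members Hk1 and Pfkm had an r of 0.91, Slc2a4 and Pfkm 0.90, Ldha and Ldhb -0.49, and Pdk2 and Pdk4 0.0062. Dox at 24 hours was the lowest point of Hk1, Pfkm and Slc2a4.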

How the data were processed

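RNA sequencing was done on 65 libraries of neonatal rat cardiomyocytes. The deposited table holds expected counts (estimated counts per gene, not normalized): the authors pseudoaligned reads with kallisto 0.46.0 to the rat transcriptome of Ensembl, used tximport to get from transcripts to genes, and dropped genes low in every sample. The values are whole numbers. Of 14554 genes 14009 had a symbol, and all had at least 10 counts in at least 1 library.

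Counts were fitted with edgeR 4.0.16 in R 4.3.3 (TMM factors 0.859 to 1.07, quasi-likelihood test) in 1 model with 10 groups. SE is the size of the log2 fold change divided by the square root of F. Ratios used a pseudocount of 0.5. Alternatives were DESeq2 1.42.0 with its size factors, library size only, only the groups compared, other filters and thresholds, each library left out, and, chosen after seeing the data, the 4 libraries that stand apart left out. The counts of gene lists were repeated by library size only and without those libraries, also chosen after seeing the data. The test was also run on simulated data, and the outcome is not reported here.

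The members and gene lists were chosen with earlier results of these data known. The genes named are the members, genes of the fixed lists beside the count of their list, and for each member the genes most like it, of which 3 were ranked; those singled out within a list, and the genes that set libraries apart, were picked after their values were seen. Library numbers follow the order of columns. Genes outside the table, Gapdh among them, were not analysed here, and 1 gene most like a member is not reported here.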

Additional observations from a re-analysis of the deposited data

Results flagged for a closer look

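Of 90 combinations of a member and a group, 12 had a library far from the rest of its group, by the gap to its nearest neighbour as a share of the group's range (Dixon's ratio). Chance flags about 1 in 20. DMSO1 24 h library 1 was low in Slc2a1 (0.716) and high in Ldha (0.790) and Pdk2 (0.631). 5FU 6 h library 1 was high in Slc2a4 (0.781) and Hk2 (0.784). Dox 6 h library 4 was high in Slc2a4 (0.803), Hk2 (0.819) and Ldha (0.656), and Dox 24 h library 7 in Pdk4 (0.611). Outside the libraries that stand apart, the ratio was 0.628 for Ldhb in 5FU 24 h library 3, 0.570 for Ldhb in DMSO2 24 h library 5 and 0.615 for Pdk4 in Ace 24 h library 2.

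Of 27 differences between the effect at 24 and at 6 hours, 11 passed the interaction test in edgeR (FDR below 0.01). In 5FU they were 0.30 for Hk1, -0.50 for Pfkm, -0.38 for Ldhb and -0.47 for Pdk4. In Dox they were 0.79 for Slc2a1, -1.66 for Slc2a4, -1.63 for Hk1, -2.83 for Pfkm, -0.47 for Ldhb, -1.12 for Pdk2 and 1.63 for Pdk4. Of all genes 20.3% were higher and 19.2% lower by this test in 5FU, 34% and 30.8% in Dox, and 5.58% and 6.06% in Ace.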

How the results depend on the processing

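No paired analysis was possible because the columns repeat the name of their group with no replicate number. Pfkm, Hk1, Pdk2, Slc2a4, Ldha, Slc2a1 and Pdk4 in Dox at 24 hours kept their direction and their call under DESeq2, each scaling and filter, each left-out library and without the 4 libraries that stand apart. Members set by the FDR alone depend on a minimum log2 fold change of 1. With it the higher members were 1 in 5FU and 0 in Dox at 6 hours, 0 in 5FU and 1 in Dox at 24 hours, 0 and 1 for the differences between times in 5FU and Dox, and 0 for the controls. The lower members were then 0 in 5FU, 0 in Ace and 0 in Dox at 6 hours, 0 in 5FU and 0 in Ace at 24 hours, 0 for the 5FU difference, 0 for the controls and 0 between the solvents at 6 hours. At an FDR below 0.1 the lower members were 2 in 5FU at 6 hours and 5 in Ace at 24 hours, the Ace difference had 1 higher and 1 lower, and the Dox difference 4 higher. No share of all genes is given for these thresholds, nor for fits of the compared groups only or with libraries left out. DESeq2 and its size factors left 2 lower in Dox at 6 hours. Fits of the compared groups only gave 4 lower in Ace at 6 hours, 6 at 24 hours and 0 higher for the 5FU difference. Library size only, and the fit without the libraries that stand apart, gave 4 and 4 higher for the Dox difference, and the latter 2 lower in 5FU at 6 hours. Leaving out 1 library at a time gave 1 to 2 lower in 5FU and 2 to 4 in Dox at 6 hours, 2 to 4 in 5FU and 1 to 2 in Ace at 24 hours, and 0 to 1 and 2 to 4 higher for the 5FU and Dox differences. The causes were not tested.

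Small changes that turned their sign were not called. By library size only Slc2a1 (0.032) and Ldha (0.012) in Ace at 24 hours and Hk1 in 5FU at 6 hours (-0.023) did so, with another filter Ldhb in Ace at 6 hours (0.0065), and without the libraries that stand apart Slc2a4 (-0.22) and Hk1 (-0.043) in 5FU at 6 hours. Leaving out 1 library gave -0.047 to 0.0069 for Slc2a1 in Ace at 24 hours, -0.21 to 0.25 for Slc2a4 and -0.036 to 0.095 for Hk1 in 5FU at 6 hours, -0.35 to 0.045 for Slc2a4 in Dox at 6 hours, -0.0093 to 0.24 for the Ldha difference between times in 5FU, and -0.014 to 0.020 for Ldhb in Ace at 6 hours.

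A pseudocount of 5 changed no call of a ratio. Without the libraries that stand apart Slc2a4 to Slc2a1 was -0.16 in Dox at 6 hours and 0.27 in 5FU at 24 hours, Hk2 to Hk1 -0.20 in Dox at 6 hours, and Ldha to Ldhb -0.043 in 5FU and 0.12 in Dox at 6 hours. Leaving out 1 library gave -0.16 to 0.12 for Slc2a4 to Slc2a1 in Dox at 6 hours, 0.11 to 0.27 for it in 5FU at 24 hours, -0.20 to -0.042 for Hk2 to Hk1 in Dox at 6 hours, -0.072 to 0.011 for it in Ace at 24 hours, and -0.043 to 0.15 and 0.12 to 0.25 for Ldha to Ldhb in 5FU and Dox at 6 hours.

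By library size only, mean levels moved by more than 1 SD for Slc2a1 in DMSO2 (129 CPM) and Dox (102 CPM), Pfkm in Ace (388 CPM), and Ldhb in Ace (1024 CPM) and Dox (1195 CPM), all at 6 hours. It moved the median of all genes to -0.15 in Dox at 6 hours and to 0.27 for the Dox difference, and the genes called higher and lower went from 3408 and 3563 to 2478 and 4258 in 5FU at 6 hours, 4589 and 4760 to 3064 and 5998 in Dox at 6 hours, 2645 and 2773 to 3449 and 2166 in Ace at 24 hours, and 812 and 882 to 1402 and 417 and 4946 and 4478 to 6234 and 3379 for the Ace and Dox differences. Those of the 5FU difference went from 2961 and 2794 to 3440 and 2214, those of Ace at 6 hours from 2404 and 2215 to 1962 and 2452, and those between the solvents from 1436 and 961 to 723 and 1720 at 6 hours and 20 and 43 to 71 and 17 at 24 hours, where DESeq2 gave 60 and 117. No member, pathway or marker gene that edgeR called changed its sign under either other scaling, but calls were lost. By library size only they were 16 of 114 in Dox, 12 of 67 in 5FU, 2 of 39 in Ace and 10 of 53 between the solvents at 6 hours, 4 of 138 in Dox, 1 of 99 in 5FU, 9 of 66 in Ace and 1 of 4 between the solvents at 24 hours, 11 of 119, 5 of 64 and 4 of 19 for the Dox, 5FU and Ace differences and 2 of 125 for the controls. DESeq2's size factors lost at most 3 in any comparison. Each member had at least 188 counts in every library, and an effect of depth on the calls was not tested.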

Other observations

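The libraries 5FU 6 h 1 and Dox 6 h 4, high in Slc2a4 and Hk2, were also high in other genes, picked after their values were seen. Pdk1, a pyruvate dehydrogenase kinase, stood at 184 CPM against 41.6 to 61.7 CPM in the other 5FU libraries and 212 CPM against 54.6 to 75.3 CPM in the other Dox libraries. Vegfa, an angiogenic growth factor, stood at 348 CPM against 121 to 145 and 638 CPM against 249 to 318 CPM. Tpi1 of glycolysis stood at 1847 CPM against 629 to 919 and 1821 CPM against 848 to 1008 CPM, and Aldoa, Eno1 and Pgk1 were above all other libraries of their group as well, by 1.53- to 1.90-fold over the mean of the others. Of other genes looked at in the same way, P4ha1, a prolyl hydroxylase of collagen, was 1.62- and 1.64-fold over the mean of the others in these libraries, Egln3, an oxygen-sensing hydroxylase, 1.59- and 1.37-fold, and Bnip3l, a relative of Bnip3, 1.11- and 1.36-fold, where Bnip3l in 5FU 6 h library 1 stood at 64.03 CPM against 50.6 to 63.7 CPM. The cause was not tested.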
